A study of Mus musculus with 120 samples.

Results

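Oscillospiraceae and Ruminococcaceae are families of anaerobic, mostly fermenting bacteria of the gut. The variants of the bacterial 16S rRNA gene that the deposited taxonomy places in them were followed in mouse colon and cecum. They were chosen by the family name of each variant in that taxonomy, which takes no measured value into account, and number 1009 of 13844 variants, 323 in Oscillospiraceae and 686 in Ruminococcaceae. All samples came from C57BL/6N mice that were 10 weeks old at the start, had 7 days of acclimatisation, lived alone in a cage and were kept for 42 days under a fixed light cycle. All mice ate the same irradiated chow. Chow groups drank sterilised water, and antibiotics groups had a cocktail of broad-spectrum antibiotics in it, whose components the labels do not name. Light lasted 0 h per day in LD0/24, 8 h in LD8/16, 12 h in LD12/12, 16 h in LD16/8 and 24 h in LD24/0, the rest of each day being dark. The design names 240 mice, 24 per diet and light cycle, and 120 libraries are analysed here. Each of the 20 combinations of site, diet and light cycle has 6 libraries, save 5 for the colon with antibiotics under LD8/16 and 7 for the cecum on chow under LD8/16.

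Both families ferment plant polysaccharides and products of other bacteria to short-chain fatty acids. Several Ruminococcaceae are primary degraders of cellulose, xylan or resistant starch, and Faecalibacterium is a major butyrate producer of the human colon. Oscillospiraceae include Oscillibacter, which makes valerate in culture, Intestinimonas, which makes butyrate from sugars and amino acids, and Flavonifractor, which cleaves flavonoids.

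Libraries held 39157 to 73076 counts each, with a mean of 63733.8. A share is the percent of a library's counts, so a fall in a share and a rise of other bacteria cannot be told apart. A count of 0 allows a share of up to 0.00766% in the shallowest library and 0.00411% in the deepest, by counting error only (3 counts of the total), since the amplicon reads carry no molecular identifiers. The labels do not say which colon and cecum samples share a mouse, and p-values measure the spread between these samples. Genera of food and mouth (11 names such as Pediococcus, Weissella and Veillonella) averaged 2.32% of a colon library's counts on chow and 2.69% with antibiotics, and 0.0272% of a cecum library's counts on chow and 2.34% with antibiotics. The low-level variants of 26 such genera split 86 libraries into 11 sets of 7 to 8 that cross the study's groups. The upper size of 8 was imposed, since clusters of libraries were split until none held more than 8. These sets were found from the data and are not in the labels, and 34 libraries held too little to be placed. Only 2 sets hold both diets, and no set holds both sites of 1 diet. In 3 libraries (replicate 5 of the colon on chow under LD24/0, and replicates 5 and 6 of the cecum with antibiotics under LD24/0) the food and mouth genera took 0 to 0.0255%, unlike the rest of their site and diet. Their effect on each result is given where it changed a call.

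The deposited taxonomy names 12 genera in Oscillospiraceae and 25 in Ruminococcaceae, counting the variants without a genus as 1 unclassified group per family. Most variants are rare. Of the Oscillospiraceae variants 178 (55.1%) occurred in a single library, and of the Ruminococcaceae variants 466 (67.9%), against 67.1% of all variants. These single-library variants held 3.90% of the Oscillospiraceae counts and 6.36% of the Ruminococcaceae counts, against 1.70% over the whole table. Only 10 Oscillospiraceae and 17 Ruminococcaceae variants reached 30 libraries. The family names stand under a pair of orders: 256 of the Ruminococcaceae variants and 23 of the Oscillospiraceae variants are filed under Clostridiales and the others under Oscillospirales. Flavonifractor and Oscillospira each occur as a genus of both families, and the 2 entries are kept apart below.

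The comparison of diets addresses what antibiotics did to the families at each site. Both families were far lower with antibiotics. In the colon on chow, Oscillospiraceae took from 0.0181% to 3.92% of counts with a median of 0.828% (30 libraries), and with antibiotics from 0 to 0.0822% with a median of 0.0358% (29 libraries, 3 of them at 0). The ranges overlapped only at the lowest chow libraries, and 29 of 29 antibiotics libraries lay below the chow mean. The mean fell from 1.31% ± 1.14 (SD, n = 30) to 0.0342% ± 0.0229 (SD, n = 29), a fitted log2 change of -5.20 ± 0.48 (SE, adjusted p = 2.52e-15 by edgeR). In the cecum, Oscillospiraceae took from 0.120% to 6.51% on chow with a median of 0.592% (31 libraries) and from 0 to 0.443% with antibiotics with a median of 0.0258% (30 libraries, 2 at 0). The log2 fold change there was -5.24 ± 0.57 (SE, adjusted p = 2.75e-13), and 30 of 30 antibiotics libraries lay below the chow mean.

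Ruminococcaceae fell at both sites too. In the colon the family took from 0.0526% to 5.11% on chow with a median of 1.21%, and from 0.0143% to 0.310% with antibiotics with a median of 0.130%. The log2 fold change was -3.65 ± 0.32 (SE, edgeR adjusted p = 6.40e-16), and 29 of 29 antibiotics libraries lay below the chow mean. In the cecum it took from 0.296% to 5.21% on chow and from 0.0514% to 0.229% with antibiotics, and the groups did not overlap. The log2 fold change was -3.54 ± 0.32 (SE, adjusted p = 1.45e-16). A change was the rule in this table: 74.1% of 112 families passed in the colon and 89.1% of 110 in the cecum, and the median log2 fold change over all families was -2.20 in the colon and -0.14 in the cecum. Related families of fermenters were lower too, Lachnospiraceae with log2 fold changes of -4.86 in the colon and -4.96 in the cecum, Butyricicoccaceae with -5.79 and -4.75, the [Eubacterium] coprostanoligenes group with -5.10 and -6.41, and UCG-010 with -7.06 and -7.79. Where library sizes were scaled for composition (TMMwsp factors), the falls were smaller in the colon, -3.10 for Oscillospiraceae and -1.63 for Ruminococcaceae, and the median over all families moved to -0.57. They were -4.25 and -2.89 in the cecum, where that median moved to 0.26.

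**Figure D1:**
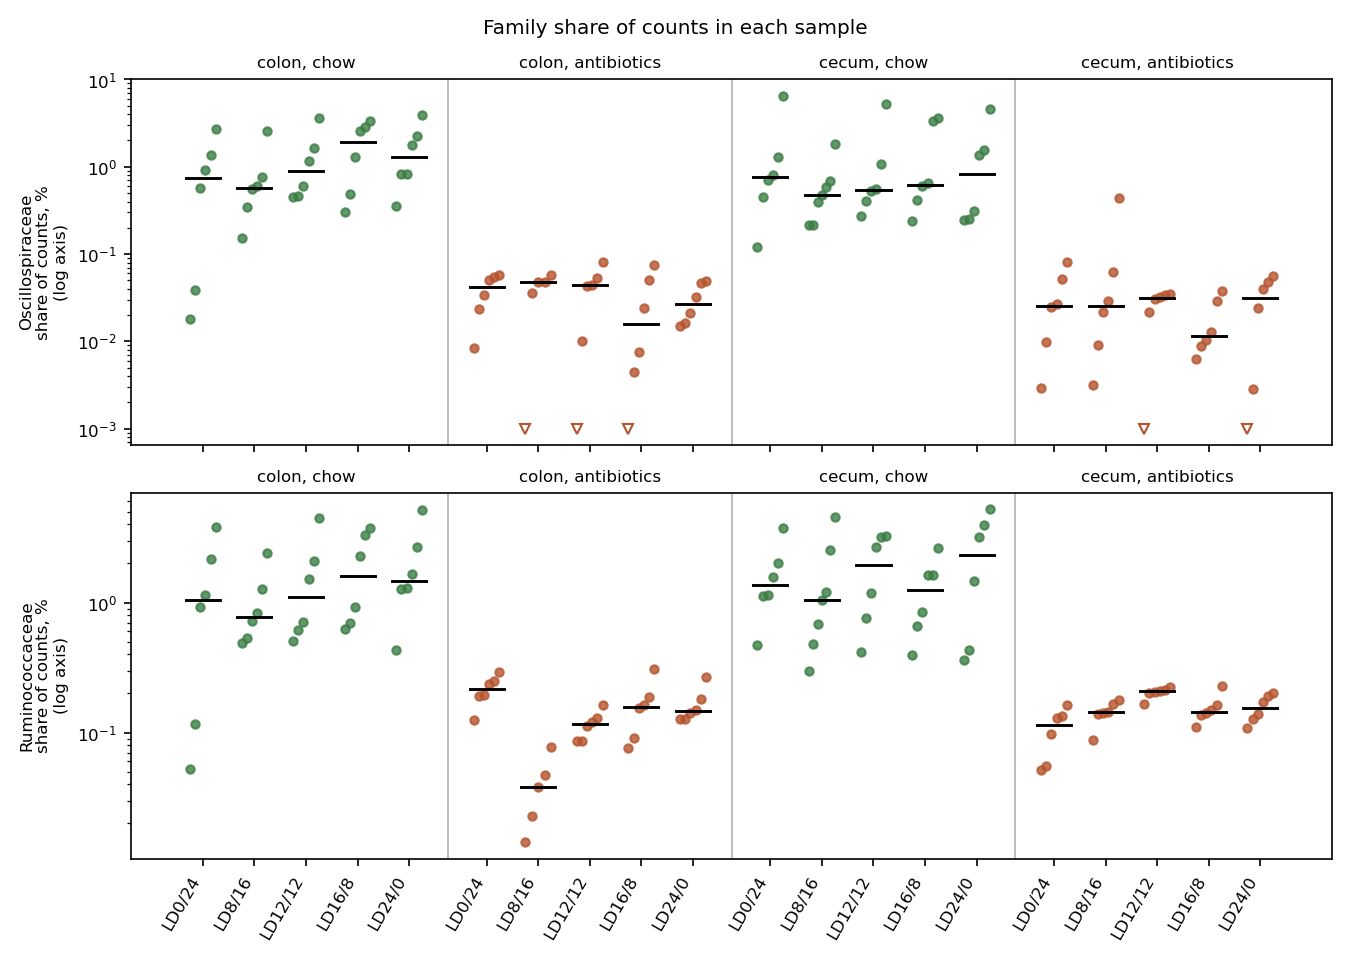
Share of counts of Oscillospiraceae and Ruminococcaceae in every library (percent, log axis), by site, diet and light cycle. Each circle is a library, each bar the median of its group, and open triangles at the lower edge mark libraries with 0 counts. In the cecum the antibiotics libraries reach at most 0.229% and the chow libraries at least 0.296% for Ruminococcaceae, while light cycles overlap within each site and diet for Oscillospiraceae.

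The 2 sets that hold both diets give the comparison within a set. In set 4, which joins 4 colon libraries on chow under LD8/16 with 4 cecum libraries with antibiotics under LD0/24, Oscillospiraceae took 0.153% to 0.758% on chow and 0.00294% to 0.0802% with antibiotics. Ruminococcaceae took 0.530% to 1.27% on chow and 0.0514% to 0.133% with antibiotics in the same set. Both differences had an exact permutation p of 0.0286 (two-sided), the smallest that 4 against 4 libraries allow, and site and light cycle differ along with diet. In set 5, with 2 colon libraries on chow under LD24/0 and 5 with antibiotics under LD8/16, Oscillospiraceae took 0.354% and 3.92% on chow and at most 0.0577% with antibiotics. Ruminococcaceae took 0.430% and 5.11% against at most 0.0768%, and again the exact permutation p was the smallest possible, 0.0476. In both sets each chow library lay above each antibiotics library for both families. With the set as a block, a fit in which set 5 alone sets diets against each other within the colon, the family log2 fold changes in the colon were -8.43 for Oscillospiraceae (edgeR adjusted p = 0.0292) and -7.53 for Ruminococcaceae (adjusted p = 0.00384).

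Most named genera fell with their family. Of the 37 genus names, 29 had at least 3 counts in at least 5 colon libraries, and 27 of these passed the test between diets in the colon (80.8% of all 261 genera tested passed), 25 lower and 2 higher with antibiotics (64.0% and 16.9% of all). In the cecum 28 of 29 passed (92.2% of 255 tested), 26 lower and 2 higher (58.4% and 33.7% of all). With the set as a block 2 genera passed in the colon, and with the share of food and mouth genera as a covariate 16 passed in the cecum. The share of all genera that passed in these alternative fits is not given here. The median log2 fold change of the members was -4.66 in the colon against -3.62 over all genera tested, and -4.76 in the cecum against -2.94. With genera at 0 throughout a diet placed at their bound, the medians were -3.28 against -1.11 in the colon and -4.31 against -0.87 in the cecum.

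Colidextribacter, cultured from the human colon, was the most abundant named genus of Oscillospiraceae, with 102 variants. It took a mean of 0.599% ± 0.598 (SD, n = 30) in the colon on chow and 0.0191% ± 0.0145 (n = 29) with antibiotics, and 0.419% ± 0.773 (n = 31) and 0.0135% ± 0.0127 (n = 30) in the cecum. Its log2 fold change was -4.90 ± 0.60 (SE, edgeR adjusted p = 4.94e-11) in the colon and -4.76 ± 0.69 in the cecum (adjusted p = 5.57e-09). It was still counted in 20 of 29 colon libraries and 18 of 30 cecum libraries with antibiotics, more often than any other Oscillospiraceae genus. Intestinimonas, the butyrate producer, had a colon median of 0.173% on chow, with a range of 0.00987% to 1.23%, and was counted in 12 of 29 colon libraries with antibiotics, at no more than 0.0341%. Its log2 fold change was -5.68 ± 0.67 in the colon and -6.15 ± 0.78 in the cecum. Oscillibacter, the valerate producer, took a mean of 0.139% ± 0.152 (SD) in the colon and 0.0817% ± 0.153 in the cecum on chow, and its log2 fold changes were -5.37 ± 0.71 and -5.80 ± 0.77. Unclassified Oscillospiraceae changed by -5.37 and -5.67, and UCG-005, a clade known from uncultured sequences, by -4.66 and -5.26.

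In Ruminococcaceae, Ruminococcus, the genus of cellulose and starch degraders, led the family on chow. It had 129 variants and took 0.00479% to 3.49% of the colon on chow with a median of 0.396%, and 0 to 0.145% with antibiotics with a median of 0.0175%. Its log2 fold change was -4.24 ± 0.62 (SE, edgeR adjusted p = 1.06e-08) in the colon and -5.92 ± 0.77 (adjusted p = 2.06e-10) in the cecum. The unclassified Ruminococcaceae, the group with the most variants (247), were among the lowest with antibiotics. They took a mean of 0.258% ± 0.216 (SD, n = 30) in the colon and 0.328% ± 0.276 (n = 31) in the cecum on chow, and at most 0.00658% in any antibiotics library. The log2 fold change was -7.65 ± 0.68 in the colon and -8.59 ± 0.67 in the cecum (edgeR adjusted p = 4.48e-16 and 5.82e-19). Incertae Sedis, a holding name of 86 variants, changed by -5.15 and -5.42 on the log2 scale, and Negativibacillus, known from the human gut, changed by -6.48 and -6.16.

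Anaerotruncus, which makes acetate and butyrate in culture, was lower with antibiotics but was counted in more antibiotics libraries than any other genus that fell. Its median in the colon was 0.0332% on chow and 0.00901% with antibiotics, and 25 of 29 antibiotics libraries held it. The log2 fold change was -3.28 ± 0.58 (SE, edgeR adjusted p = 9.18e-07), and -3.73 ± 0.81 in the cecum (adjusted p = 2.59e-05). The colon call was lost with TMMwsp factors (-1.16, adjusted p = 0.0521), under which the median over all genera moved from -3.62 to -2.30. The [Eubacterium] siraeum group, named for a species of the human gut, changed by -3.18 ± 0.92 in the colon (adjusted p = 0.00124) and -4.71 ± 0.93 in the cecum. Its colon call was lost with TMMwsp factors too (-0.81, adjusted p = 0.450). Rarer genera fell as well, among them Papillibacter, known for breaking down cinnamate, which took a mean of 0.0389% ± 0.0481 in the cecum on chow and 0 in all 30 cecum libraries with antibiotics, at least 8.59-fold lower. Harryflintia, counted in 23 of 30 colon libraries on chow, was at 0 in all 29 colon libraries with antibiotics, at least 4.24-fold lower.

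**Figure D2:**
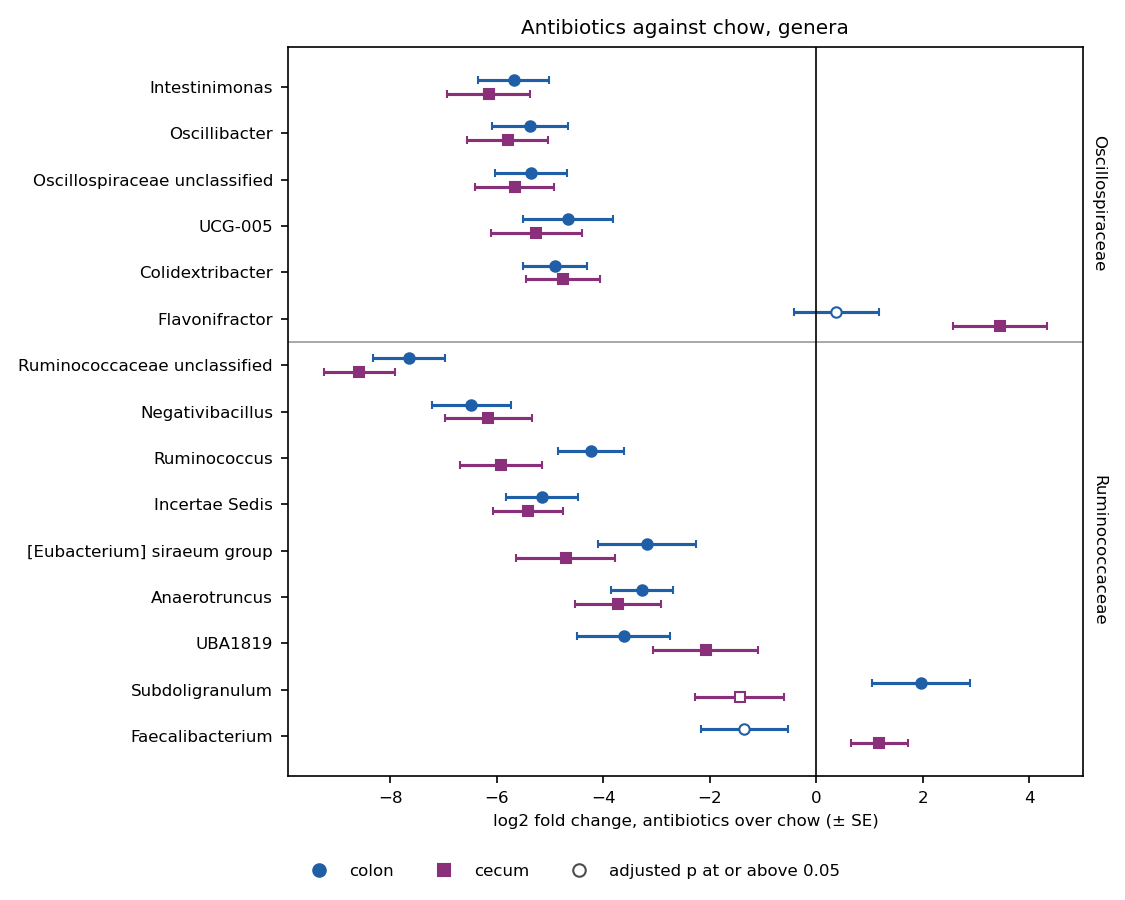
Log2 fold change with antibiotics (points, with the standard error as bars) of 15 genera of the 2 families in the colon (circles) and in the cecum (squares), from edgeR, open where the adjusted p was 0.05 or more. Subdoligranulum in the colon, and Flavonifractor and Faecalibacterium in the cecum, lie above 0 with filled points, and 12 genera lie below 0 at both sites.

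Grouped by what their cultured relatives do, the genera of butyrate producers gave 6 of 8 tested past the threshold in the colon, 5 lower and 1 higher, with a median log2 fold change of -3.51 (-2.32 with genera at 0 at their bound). In the cecum 7 of 8 passed, 5 lower and 2 higher, with a median of -4.50 (-2.58). All 4 genera of fibre and starch degraders were lower at both sites, with medians of -4.55 and -5.32 (-3.71 and -3.91 at the bound). All 6 tested groups named from clone libraries or placeholder codes were lower at both sites as well, with medians of -4.57 and -4.78. Of all genera tested, 80.8% passed in the colon (64.0% lower) and 92.2% in the cecum (58.4% lower).

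Faecalibacterium and Subdoligranulum, a pair of closely related butyrate producers, did not follow the family. Faecalibacterium took a mean of 0.0388% ± 0.0388 (SD, n = 30) in the colon on chow and 0.0214% ± 0.0225 (n = 29) with antibiotics, a log2 fold change of -1.35 ± 0.82 that did not pass (edgeR adjusted p = 0.126). In the cecum it took 0.0484% ± 0.0785 (n = 31) on chow and 0.0888% ± 0.0480 (n = 30) with antibiotics, where it was counted in all 30 libraries. There it rose by 1.19 ± 0.54 (adjusted p = 0.0352), a call lost without the cecum libraries that stand apart (1.06, adjusted p = 0.0519). Food and mouth genera averaged 0.0272% of counts in the cecum on chow and 2.34% with antibiotics, and no cecum library on chow is in a set. No cecum chow library can thus be compared with an antibiotics library of its own set. How much of the rise goes with the sets rather than with antibiotics was not tested. Subdoligranulum had a colon median of 0 on chow and 0.0358% with antibiotics, but close means, 0.0299% ± 0.0473 (SD, n = 30) and 0.0342% ± 0.0202 (n = 29), and was counted in 13 of 30 and 25 of 29 libraries. The fitted log2 fold change was 1.97 ± 0.92 (adjusted p = 0.044), a call lost without the colon library that stands apart (1.84, adjusted p = 0.0648) and with the set as a block (3.04, adjusted p = 0.422). In the cecum it changed by -1.44 ± 0.83 (adjusted p = 0.0947). Together the 2 genera made up 4.26% of the summed Ruminococcaceae share in the colon on chow and 4.69% in the cecum on chow, but 38.7% in the colon and 75.5% in the cecum with antibiotics. The same limit holds for the cecum figures, which compare libraries outside the sets with libraries mostly inside them. Without them, the Ruminococcaceae log2 fold change was -4.28 in the colon and -5.51 in the cecum.

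The 2 genera stood at levels of their own in the library sets. Faecalibacterium was at 0 in all 8 libraries of set 2 and all 7 of set 5, while it took 0.0672% to 0.111% in the 7 libraries of set 1 and 0.132% to 0.170% in the 8 of set 10. In set 4, which joins both diets, Faecalibacterium took 0.0256% to 0.0380% on chow and 0.0162% to 0.0294% with antibiotics (exact permutation p = 0.286). With 4 against 4 libraries that also differ in site and light cycle, this test cannot show that the diets are alike. Faecalibacterium ranged from 0.0235% to 0.0694% in set 3, from 0 to 0.0145% in set 6 and from 0.00658% to 0.0225% in set 8. Its variants differed between sets too. Faecalibacterium variant 2 (variants are numbered by mean share within their genus) was in all 7 libraries of set 1, all 8 of set 7 and all 8 of set 10, and in none of the 8 of set 2, set 4, set 8, set 9 or set 11 and of the 7 of set 5. It was in 5 of 8 libraries of set 3 and 3 of 8 of set 6. Subdoligranulum variant 1 was in all 8 libraries of set 3 at 0.0776% to 0.126%, in all 8 of set 8 and of set 11, and in none of set 1, set 2, set 5 or set 6. In set 4, set 7, set 9 and set 10 it was in 1 to 3 of 8 libraries, at no more than 0.00598%.

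Over the 57 antibiotics libraries placed in sets, differences between sets made up 95.4% of the variance of log2 share for Faecalibacterium and 90.9% for Subdoligranulum. They made up 98.6% for Caproiciproducens, a genus named for making caproate, 97.2% for UBA1819, a placeholder from genome assemblies, and 58.1% for Ruminococcus. By contrast the figure was 3.59% for Colidextribacter, 2.46% for UCG-005, 7.26% for Intestinimonas and 14.8% for Anaerotruncus. With antibiotics no set joins both sites, so all these figures include differences between sites and, in part, between light cycles. The figure that sets drawn at random would have is not given here. Ruminococcus variant 9, the only named variant filed under Clostridiales, was in all 8 libraries of set 7 at 0.0699% to 0.137% and in none of the libraries of 8 other sets. The part of the sets in the diet, site and light calls of these genera was not tested beyond the fits with the set as a block. A cecum library on chow under LD8/16, in a group with little of the food and mouth genera, held 0.359% Faecalibacterium, the highest share of the series, and 25 of 31 cecum libraries on chow held the genus.

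**Figure D3:**
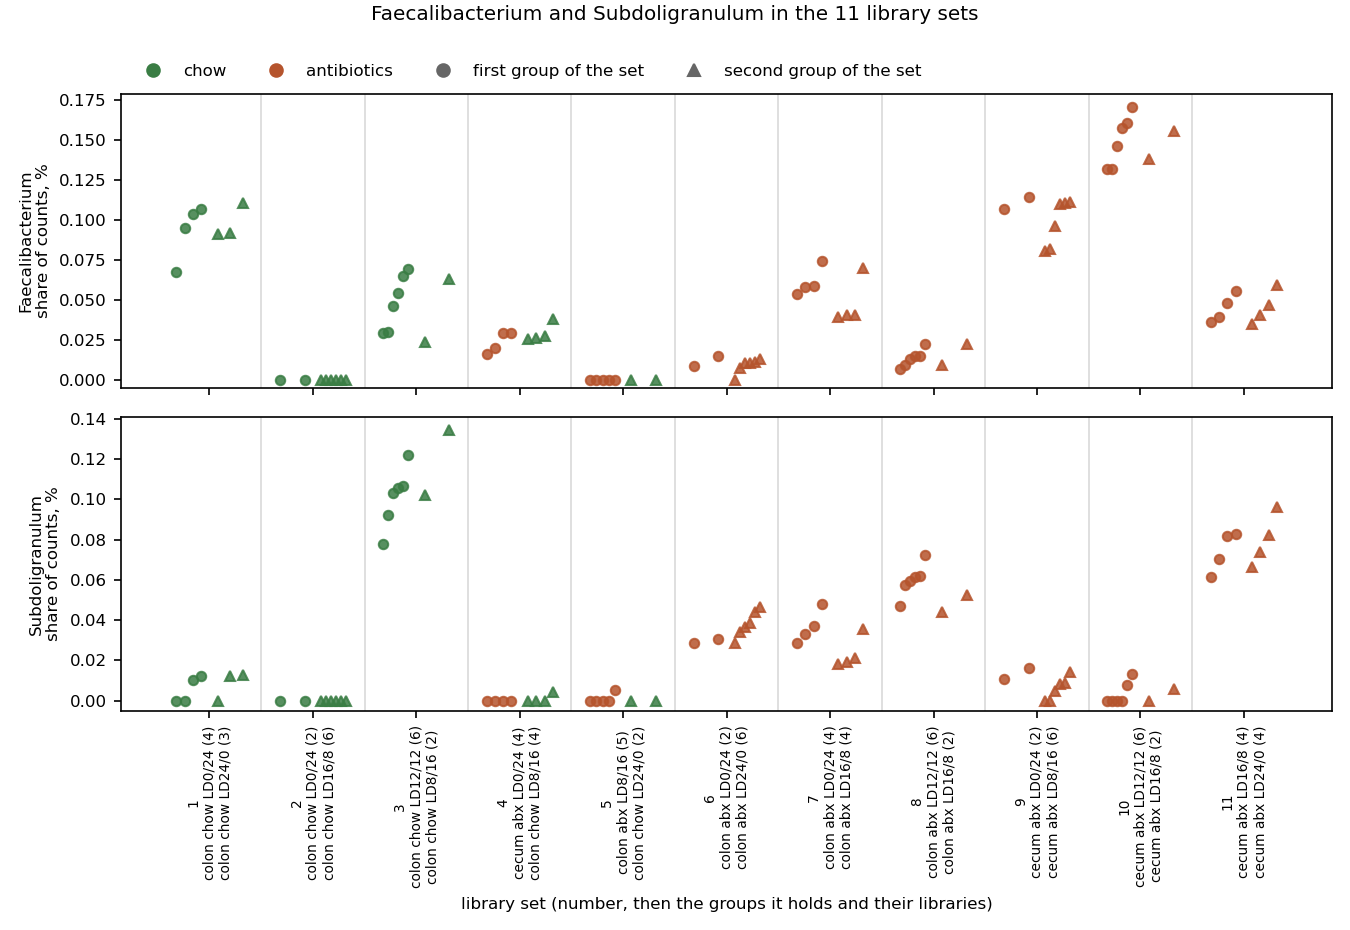
Share of counts (percent) of Faecalibacterium and Subdoligranulum in the 86 libraries placed in 11 sets, each point a library coloured by diet, circles and triangles marking the 2 groups a set joins. Both genera are at 0 throughout set 2, and in set 4 the chow and antibiotics libraries hold 0.0162% to 0.0380% Faecalibacterium.

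Caproiciproducens and Flavonifractor of Oscillospiraceae were the other genera higher with antibiotics. Caproiciproducens was at 0 in all 30 colon libraries on chow and was counted in 8 of 29 with antibiotics, at up to 0.0609% (at least 2.25-fold higher as a mean, edgeR adjusted p = 3.65e-05). These 8 are the libraries of set 6. Flavonifractor of Oscillospiraceae was counted in 1 of 31 cecum libraries on chow and 8 of 30 with antibiotics, where it rose by 3.45 ± 0.88 on the log2 scale (adjusted p = 0.000355). A single library, replicate 6 of LD8/16, held 0.404%, and the other 29 held at most 0.0138%. Without that library the log2 fold change was 1.53 (adjusted p = 0.0221), and with contrasts averaged within light cycles it was 2.94 (adjusted p = 1.00).

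At the level of single variants, 117 of the 1009 passed the filter in the colon and 108 of them passed the test between diets (87.1% of 1222 tested), 104 lower and 4 higher (76.9% and 10.1% of all). In the cecum 112 of 120 passed (95.0% of 1246), 108 lower and 4 higher (71.4% and 23.6% of all). The most abundant variant, Ruminococcus variant 1, was counted in 70 libraries, took 0.285% ± 0.567 (SD, n = 30) in the colon on chow and 0.00693% ± 0.00813 (n = 29) with antibiotics, and reached 2.76% in 1 library. Its log2 fold change was -4.98 ± 1.00 in the colon (edgeR adjusted p = 8.17e-06) and -4.54 ± 1.12 in the cecum (adjusted p = 0.000141). Anaerotruncus variant 1 was the most widespread member, in 90 libraries, 25 of 29 in the colon with antibiotics among them. Negativibacillus variant 1 was in all 30 colon libraries on chow and in none of the 29 with antibiotics, at least 15.3-fold lower. UCG-005 variant 1, counted in 20 libraries, did not pass at either site (adjusted p = 0.633 and 0.230) although 1 cecum library on chow held 4.88% of it. The 4 higher variants in the colon were Subdoligranulum variants 2 and 3, Caproiciproducens variant 1 and Ruminococcus variant 9. Those in the cecum were Faecalibacterium variants 1 and 3, UBA1819 variant 2 and Flavonifractor variant 1 of Oscillospiraceae. The part of the sets in these cecum calls was not tested, since no cecum library on chow is in a set.

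The number of variants fell with the share. At a common depth of 39157 counts, a colon library on chow held 26.3 ± 16.7 (SD, n = 30) Oscillospiraceae variants and one with antibiotics 2.43 ± 1.43 (n = 29). In the cecum the numbers were 22.3 ± 12.8 (n = 31) and 2.38 ± 1.70 (n = 30). Ruminococcaceae variants went from 34.3 ± 16.7 to 6.50 ± 2.42 in the colon and from 37.3 ± 17.7 to 6.43 ± 1.94 in the cecum. All 4 differences had an adjusted permutation p of 1e-05 (two-sided, labels permuted within light cycles), the smallest that 100000 resamples can give. Of the variants seen with antibiotics most were also seen on chow: 38 of 45 in Oscillospiraceae and 51 of 68 in Ruminococcaceae, against 1165 of 2179 over all variants. Variants seen with antibiotics only were 2.17% of the Oscillospiraceae variants and 2.48% of the Ruminococcaceae variants, against 7.32% of all variants. The leading variant of a library held a mean of 24.7% of its Oscillospiraceae counts in the colon on chow and 65.2% with antibiotics, and 30.2% and 72.3% in the cecum. The antibiotics means cover the 26 colon and 28 cecum libraries that held the family. Their leading share is bound to be large, since the median library with antibiotics held 2 Oscillospiraceae variants at each site. In Ruminococcaceae the leading variant held 30.3% and 38.3% in the colon, and 25.7% and 40.2% in the cecum.

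**Figure D4:**
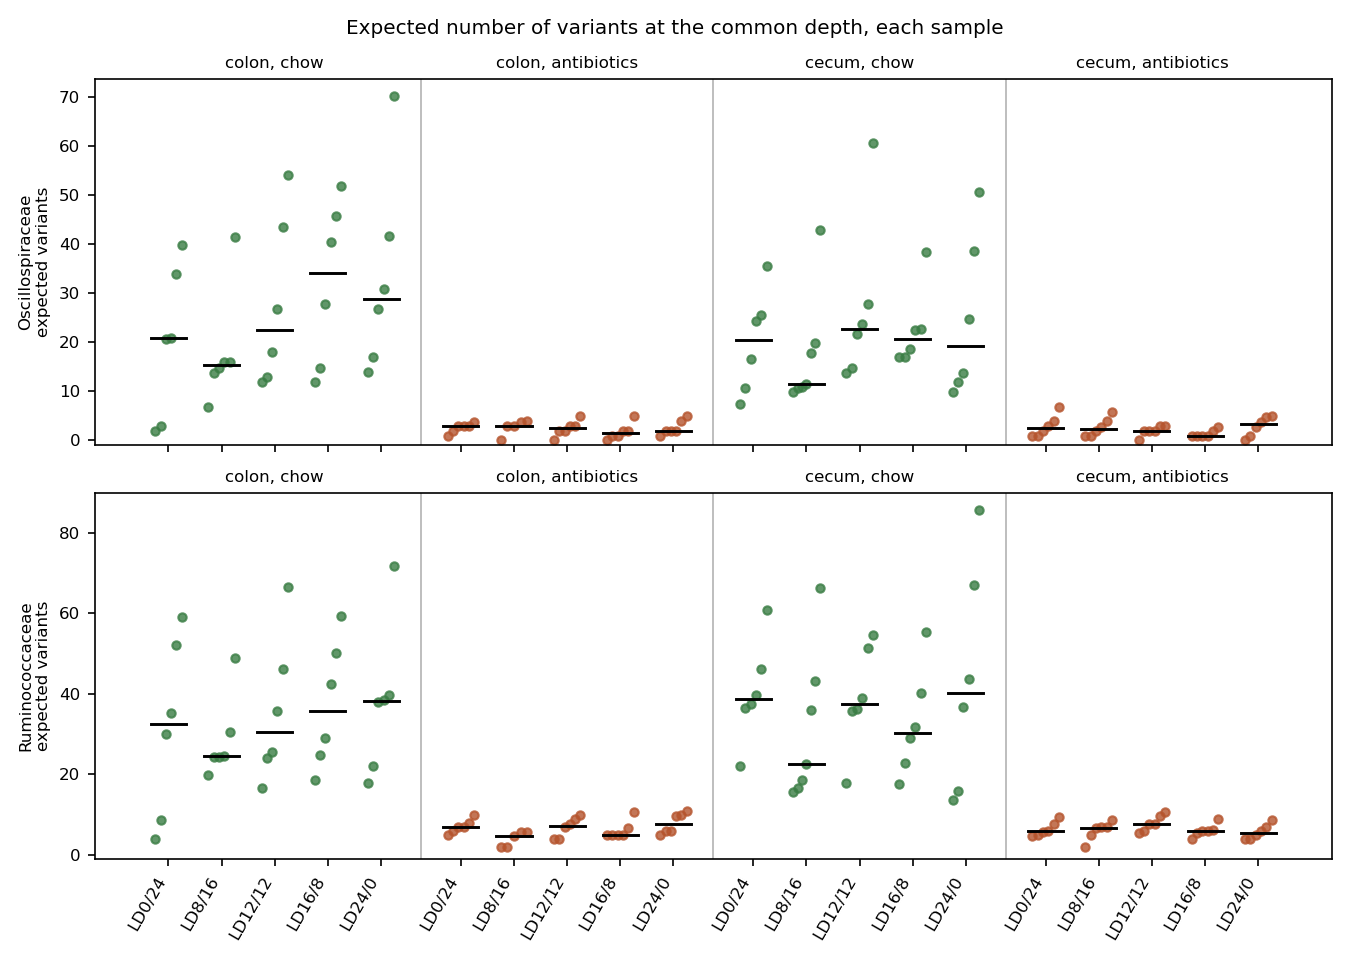
Expected number of variants of each family per library at 39157 counts, by site, diet and light cycle, each point a library and each bar the median of its group. Means with antibiotics are 2.38 to 2.43 Oscillospiraceae and 6.43 to 6.50 Ruminococcaceae variants per site, against 22.3 to 37.3 on chow.

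The comparison of sites addresses whether cecum and colon carry the families alike on the same diet. On chow, neither family passed: the log2 fold change of cecum over colon was -0.03 ± 0.39 (SE, edgeR adjusted p = 0.969) for Oscillospiraceae and 0.16 ± 0.34 (adjusted p = 0.737) for Ruminococcaceae, where 51.8% of 110 families passed and their median was -0.67. Both were higher in the cecum under composition-adjusted scales, with 0.85 and 1.06 by DESeq2 (adjusted p = 0.0235 and 0.000399) and 1.08 and 1.45 on centred log-ratios (adjusted p = 0.0146 and 0.000154), where the median over all families was 0.37 and 0.60. Of 31 genera tested 2 passed (43.6% of 273). UCG-002, an uncultured clade, was counted in 14 of 31 cecum and 3 of 30 colon libraries and was higher in the cecum by 3.32 ± 0.86 (adjusted p = 0.000709), and Oscillospira of Ruminococcaceae was higher by 2.19 (adjusted p = 0.0269). Neither passed with the share of food and mouth genera as a covariate, and that share differs between these sites. At the level of variants 27 of 176 passed (26.1% of 1707), 14 higher and 13 lower in the cecum. Subdoligranulum variant 2 was in 20 of 31 cecum and 2 of 30 colon libraries (log2 fold change 4.82 ± 1.02, adjusted p = 6.28e-05). The number of variants per library did not pass for either family (differences of -3.99 and 3.01 variants, adjusted permutation p = 0.499 for both).

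With antibiotics, the log2 fold change of cecum over colon was -0.08 ± 0.44 (SE, edgeR adjusted p = 0.908) for Oscillospiraceae and 0.23 ± 0.21 (adjusted p = 0.440) for Ruminococcaceae, where 48.2% of 110 families passed. Without Faecalibacterium and Subdoligranulum, Ruminococcaceae was lower in the cecum, with a log2 fold change of -1.13 (adjusted p = 0.00280). That remainder took a mean of 0.0881% in the colon and 0.0373% in the cecum. It still held Ruminococcus variant 9, at 0.0298% in the colon and 0 in the cecum, and Caproiciproducens variant 1, at 0.0111% in the colon. Both vary by set in the colon, and the remainder without them was not tested. Of 17 genera tested 3 passed (46.3% of 216). Faecalibacterium was higher in the cecum by 2.55 (adjusted p = 9.30e-07), at 0.0162% to 0.170% in all 30 libraries against 0 to 0.0740% in the colon. Caproiciproducens was counted in 8 of 29 colon libraries and none of 30 in the cecum, at least 2.45-fold lower (adjusted p = 3.92e-05), and Ruminococcus was lower in the cecum, with a log2 fold change of -1.67 (adjusted p = 0.0112). All 3 are among the genera that differ most between sets, and since no set holds both sites with antibiotics, site and set cannot be told apart. At the level of variants 7 of 26 passed (47.0% of 598), 3 higher and 4 lower in the cecum.

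The effect of antibiotics differed between the sites for 3 of 33 genera tested (42.5% of 325): Flavonifractor of Oscillospiraceae, Caproiciproducens and Paludicola. For the families the difference was 0.19 ± 0.62 (SE, log2, edgeR adjusted p = 0.883) for Oscillospiraceae and -0.00296 ± 0.457 (adjusted p = 1.00) for Ruminococcaceae, where 54.5% of 134 families passed. With TMMwsp factors the Ruminococcaceae difference was -1.67 (adjusted p = 0.000481), and the median over all families moved from 0.31 to -0.89.

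The comparison of light cycles addresses whether the length of the day changed the families within a site and diet. On chow it was not detected for either family. In the colon on chow the Oscillospiraceae median was 0.739% in LD0/24, 0.579% in LD8/16, 0.889% in LD12/12, 1.92% in LD16/8 and 1.30% in LD24/0. All 5 ranges overlapped, and the test for any difference gave an edgeR adjusted p of 0.824 (26.1% of 92 families passed). In the cecum on chow the medians lay between 0.476% in LD8/16 and 0.835% in LD24/0, with an adjusted p of 0.727 (22.9% of 83 families passed). Ruminococcaceae gave adjusted p values of 0.872 and 0.867 at the 2 sites. With antibiotics, Oscillospiraceae gave 0.998 in the colon and 0.291 in the cecum (30.3% and 12.9% of families passed), and Ruminococcaceae gave 0.626 in the cecum. There its mean was 0.203% ± 0.0202 (SD, n = 6) in LD12/12 and 0.105% to 0.156% in the other light cycles. DESeq2 and centred log-ratios called that difference (adjusted p = 8.98e-05 and 0.0106). All 6 LD12/12 libraries there are in set 10, where Faecalibacterium took 0.132% to 0.170%, against at most 0.114% in sets 4, 9 and 11. The part of this set in the family difference was not tested. The numbers of variants per library did not pass between light cycles, with adjusted permutation p values of 0.183 to 0.871. With only variants of at least 3 counts in a library, Ruminococcaceae in the colon with antibiotics passed (adjusted permutation p = 0.024).

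Ruminococcaceae in the colon with antibiotics differed between light cycles (edgeR adjusted p = 0.000953). Its mean was 0.0400% ± 0.0244 (SD, n = 5) in LD8/16 and 0.116% ± 0.0293 (n = 6) in LD12/12, and each LD8/16 library, at no more than 0.0768%, lay below each LD12/12 library, at no less than 0.0862%. The log2 fold change was -1.54 ± 0.41 (SE, adjusted p = 0.0154), in a contrast that 6.58% of families passed. Faecalibacterium had a mean of 0 in LD8/16 and 0.0135% in LD12/12, and Subdoligranulum 0.00102% and 0.0598%. The rest of the family took 0.0143% to 0.0768% in LD8/16, with a mean of 0.0389%. It took 0.00937% to 0.0902% in set 8, which holds all 6 LD12/12 libraries and 2 of LD16/8. Family means were higher in LD0/24, at 0.215% ± 0.0582, in LD16/8, at 0.164% ± 0.0835, and in LD24/0, at 0.166% ± 0.0531, but none of these contrasts with LD12/12 passed. All 5 libraries of LD8/16 are in set 5, which holds no other antibiotics library, so LD8/16 and its set cannot be told apart. With the set as a block the adjusted p was 0.951, in a fit that compares only the other light cycles and does not test LD8/16.

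Among genera, light cycles differed for 2 of 27 tested in the colon on chow (22.0% of 223 passed), 5 of 14 in the colon with antibiotics (32.4% of 145), 2 of 28 in the cecum on chow (15.1% of 185) and 3 of 13 in the cecum with antibiotics (17.7% of 158). In the colon on chow these were Faecalibacterium and Subdoligranulum, both at 0 in all 6 libraries of LD16/8. Faecalibacterium took 0.0489% ± 0.0172 (SD, n = 6) in LD12/12, at least 10.1-fold more, and Subdoligranulum 0.101% ± 0.0150, at least 21.0-fold more (adjusted p = 0.00828 and 0.010, where 3.59% of genera passed). All 6 LD16/8 libraries lie in set 2 and all 6 LD12/12 libraries in set 3. The 2 LD0/24 libraries of set 2 held neither genus, while the 4 LD0/24 libraries of set 1 held 0.0672% to 0.107% Faecalibacterium.

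In the colon with antibiotics the 5 genera were Caproiciproducens, Faecalibacterium, Ruminococcus, Subdoligranulum and UBA1819. Caproiciproducens took 0.0398% ± 0.0117 (SD, n = 6) in LD24/0 and was at 0 in LD12/12, and UBA1819 took 0.0410% ± 0.0079 against 0.000492% ± 0.00121 (adjusted p = 0.0145 and 0.0188, where 17.9% of genera passed). In LD0/24 both were counted in 2 of 6 libraries, the 2 that share set 6 with LD24/0. Faecalibacterium was at 0 in all 5 libraries of LD8/16 and at 0.0135% ± 0.00539 in LD12/12, and Subdoligranulum was at 0.00102% ± 0.00228 against 0.0598% ± 0.00824 (adjusted p = 0.000202 and 1.04e-05, where 8.28% passed). The Ruminococcus medians were 0.101% in LD0/24, 0.0848% in LD16/8 and 0.0214% or less in the other light cycles. Its adjusted p was 0.0412, and between 0.0217 and 0.0725 with each library left out in turn, above 0.05 in 16 of these fits. In the cecum with antibiotics, UBA1819 took 0.0222% ± 0.00321 in LD12/12 and was at 0 in LD8/16 and LD24/0, at least 4.82-fold lower (edgeR adjusted p = 0.00949 and 0.00862, where 8.86% and 7.59% of genera passed). Subdoligranulum took 0.0669% ± 0.0234 in LD24/0 and 0.00352% ± 0.00572 in LD12/12 (adjusted p = 0.0257). Flavonifractor of Oscillospiraceae was the third call (adjusted p = 0.0137), counted in 4 libraries of LD0/24, 3 of LD12/12 and 1 of LD8/16, the one at 0.404%. Its call was lost on centred log-ratios (adjusted p = 0.719) and with the share of food and mouth genera as a covariate (adjusted p = 0.557). With the set as a block, the adjusted p of each of these 10 calls lay between 0.515 and 1.00. Those fits hold no contrast of LD16/8 with LD12/12 in the colon on chow, since no shared sets link these light cycles. The same is true of LD8/16 against LD12/12 with antibiotics at both sites, so the block cannot decide these contrasts. In the cecum on chow, where libraries are in no set, the calls were UCG-005 (adjusted p = 0.00997) and Acetivibrio (adjusted p = 0.00521), the latter named for cellulose-degrading species. UCG-005 rested on 1 library of LD0/24 at 5.51%, without which the adjusted p was 0.746, and Acetivibrio was counted in 7 of 31 libraries, with 0.359% in 1 of LD12/12. Among single variants, light cycles differed for 10 of 108 tested in the colon on chow (16.5% of 1055 passed), 7 of 14 in the colon with antibiotics (29.4% of 306), 18 of 113 in the cecum on chow (19.0% of 925) and 4 of 13 in the cecum with antibiotics (33.8% of 402).

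The 2 families varied together among chow libraries. Across the 30 colon libraries on chow, the log2 shares of Oscillospiraceae and Ruminococcaceae had Pearson's r = 0.95 and Spearman's rho = 0.91 (permutation p adjusted over 6 relations = 6e-05 for both). Without the 2 libraries farthest from the median of the Oscillospiraceae share r was 0.89, and within the sets that hold enough chow libraries it was 0.66 in set 1 (n = 7), 0.98 in set 2 (n = 8) and 0.94 in set 3 (n = 8). Across the 31 cecum libraries on chow r was 0.54 and rho 0.63 (adjusted permutation p = 0.00238 and 0.00024), and r was 0.58 without the 2 farthest. For Lachnospiraceae, a family of related fermenters, r was 0.52 with Oscillospiraceae and 0.60 with Ruminococcaceae in the colon, and 0.24 and 0.58 in the cecum, where the relation with Oscillospiraceae did not pass (adjusted permutation p = 0.190). The difference between these correlations was not tested, and all shares of a library add to 100%.

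**Figure D5:**
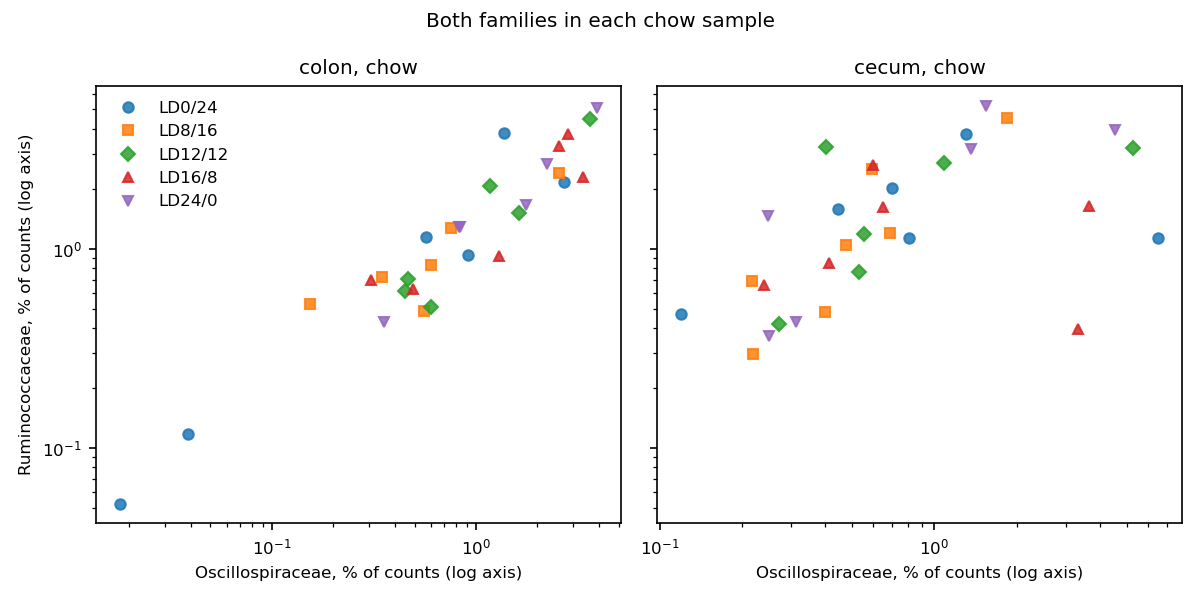
Share of Ruminococcaceae against share of Oscillospiraceae in each chow library (percent of counts, both axes log), colon and cecum in separate panels, with a colour and shape for each light cycle. Points rise together in the colon (r = 0.95, 30 libraries) and scatter more widely in the cecum (r = 0.54, 31 libraries).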

How the data were processed

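The deposited table holds raw read counts, one value for each amplicon sequence variant in each library, and a deposited taxonomy names each variant. Per the labels' protocols, DNA was extracted with a stool kit, from material the protocol calls rumen digesta while the sample labels say colonic or cecal content, and sequenced as PacBio SMRTbell libraries. Which primers, denoiser and taxonomic reference were used is not given in the sources used. The members and lists were chosen with earlier results of these data known. Groups came from the diet, light cycle and site labels. No 2 libraries held identical counts (7140 pairs).

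Counts were summed per family (249) and genus (593). Families, genera and variants with at least 3 counts in at least 5 libraries of a comparison were tested with the quasi-likelihood test of edgeR 4.0.16 (R 4.3.3) on all such features, taking each library's total count as its size, with Benjamini-Hochberg adjustment over all of them. A call is an adjusted p under 0.05. Diets were compared within a site and sites within a diet, with light cycle in the model, and light cycles within a site and diet. The interaction of diet and site used all libraries. Variants per library were expected numbers at 39157 counts, compared by permutation (100000 resamples, two-sided). The fits were also tested on simulated data. Genera whose mean reached 0.1% in a combination of site and diet were described, with up to 4 others per comparison by smallest p, and the 5 variants of each family with the highest mean over all libraries and over antibiotics libraries. Papillibacter, Harryflintia, the diet results of Faecalibacterium and Subdoligranulum as genera, and the variants named as higher with antibiotics outside that rule were chosen after their values were seen. Sets were built from variants of food and mouth genera, and libraries with at least 0.5% of these were placed. Libraries were clustered by the correlation of these variants, and clusters were split until each held at most 8. Alternatives were TMMwsp factors, DESeq2 1.42.0, limma 3.58.1 on centred log-ratios (0.5 counts added), no filter on low counts, the share of food and mouth genera as a covariate, replicate numbers as a block, and each library left out. The set as a block, libraries left out for standing apart, Ruminococcaceae without Faecalibacterium and Subdoligranulum, and contrasts averaged within light cycles were added after seeing the data.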

Additional observations from a re-analysis of the deposited data

Results flagged for a closer look

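Of 80 groups of 5 to 7 libraries examined for a single library far from the others, 16 held one. The rule flags about 1 in 20 groups where values are normally spread, but shares on chow are skewed. For Oscillospiraceae in the cecum on chow the mean was 1.28% and the median 0.592%. The groups also use the same libraries for share and for number of variants, and whether 16 exceeds chance was not tested. For the Oscillospiraceae share 6 were chow libraries with a high value. In the colon on chow, replicate 1 of LD8/16 held 2.54% against 0.153% to 0.758% in the other libraries, and replicate 2 of LD12/12 held 3.60% against 0.449% to 1.63%. In the cecum on chow, replicate 6 of LD0/24 held 6.51% (others 0.120% to 1.30%), replicate 2 of LD8/16 held 1.84% (others 0.216% to 0.689%), replicate 4 of LD12/12 held 5.30% (others 0.272% to 1.08%) and replicate 5 of LD24/0 held 4.55% (others 0.247% to 1.54%). In the cecum with antibiotics, replicate 6 of LD8/16 held 0.443% against 0.00315% to 0.0628%, of which Flavonifractor made up 0.404%, and replicate 5 of LD12/12 held 0 against 0.0217% to 0.0346%.

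In the expected number of Oscillospiraceae variants, the libraries that stood apart on chow were replicate 1 of LD8/16 in the colon, with 41.5 (others 6.86 to 15.9), and in the cecum replicate 2 of LD8/16 with 42.8 (others 9.89 to 19.8), replicate 4 of LD12/12 with 60.5 (others 13.7 to 27.9) and replicate 3 of LD16/8 with 38.4 (others 16.9 to 22.7). The last of these was not among those with a high share. With antibiotics, replicate 4 of LD8/16 in the colon and replicate 5 of LD12/12 in the cecum held 0 Oscillospiraceae variants. For Ruminococcaceae variants, replicate 1 of LD8/16 in the colon on chow had 48.9 (others 19.8 to 30.6) and replicate 2 of LD16/8 in the colon with antibiotics had 10.7 (others 4.97 to 6.70).

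The effect of antibiotics differed between cecum and colon, by edgeR's interaction term, for 3 genera. The difference on the log2 scale was 3.61 for Flavonifractor of Oscillospiraceae (adjusted p = 0.0139, and 2.19 with adjusted p = 0.210 with TMMwsp factors). It was -4.99 for Caproiciproducens (adjusted p = 1e-05), which was at 0 in all cecum libraries with antibiotics, so that the size depends on the fit. It was -1.90 for Paludicola (adjusted p = 0.00669), counted in 2 of 29 colon and 0 of 30 cecum libraries with antibiotics.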

How the results depend on the processing

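The fall of both families with antibiotics kept its direction and its call at each site under every alternative run at that site, and no called result changed direction. The set as a block was not run for diets in the cecum, where no chow library is in a set. The uncalled Oscillospiraceae change between sites on chow turned from -0.03 to above 0 where the scale was adjusted for composition, with values that follow. Counts of called members, here and in the next paragraphs, are given without the share of all features that passed in each alternative fit. They show only how the calls depend on the fit. Counts of called genera moved as follows. With the library set as a block, 2 genera passed between diets in the colon (27 otherwise), and between light cycles 0 passed in colon chow libraries and 0 and 0 in colon and cecum libraries with antibiotics. The Ruminococcaceae adjusted p for light in the colon with antibiotics was then 0.951. With the share of food and mouth genera as a covariate, 16 genera passed between diets in the cecum, 0 between sites on chow and 0 between light cycles in the cecum on chow. On centred log-ratios, 6 genera passed between sites with antibiotics, 9 between sites on chow and 1 between light cycles in the cecum on chow. On that scale the site change on chow was 1.08 for Oscillospiraceae and 1.45 for Ruminococcaceae, and the Ruminococcaceae adjusted p for light in the cecum with antibiotics was 0.0106. With DESeq2 the site changes on chow were 0.85 and 1.06, 7 genera passed there, 1 passed between light cycles in the cecum on chow, and that Ruminococcaceae p was 8.98e-05. With TMMwsp factors the site change on chow of Ruminococcaceae was 0.83 and 10 genera passed there, while the interaction gave -1.67 for Ruminococcaceae and 14 genera. Ruminococcaceae without Faecalibacterium and Subdoligranulum changed by -1.13 between sites with antibiotics.

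Without the filter on low counts, called member variants numbered 219 and 229 between diets in colon and cecum, where 7673 and 9465 variants of the whole table were tested. They numbered 20 between sites with antibiotics, where 2179 were tested. Between light cycles they numbered 277 (colon) and 375 (cecum) on chow, and 36 and 40 with antibiotics. Called genera then numbered 5 between sites on chow, and between light cycles on chow 5 (colon) and 7 (cecum), with antibiotics 5 (cecum). Counting only variants with at least 3 counts, the permutation p of Ruminococcaceae variants between light cycles in the colon with antibiotics was 0.024. The cause of these changes was not tested.

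Over all groups, replicate numbers did not pair the samples. Same-numbered deviations correlated at a mean of -0.00887 across diets, -0.0365 across light cycles and -0.00288 across sites. In turn, 6 of 59, 15 of 95 and 9 of 59 samples correlated best with their own number. Across sites on chow the mean was 0.235 in LD12/12, where 3 of 6 samples correlated best with their own number. It was 0.109 in LD16/8, 0.0655 in LD24/0, 0.0163 in LD0/24 and -0.109 in LD8/16. With antibiotics it lay between -0.153 and -0.0157. Whether same-numbered chow samples share a mouse was not tested. With the replicate block, 4 variants passed between sites on chow, between light cycles 5 (colon) and 0 (cecum) on chow and 3 in the colon with antibiotics, and 1 genus between light cycles in the cecum on chow.

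With each library left out, 2 to 4 genera passed between light cycles in the colon on chow (4 without replicate 2 of LD12/12), and 1 to 3 in the cecum on chow. The count was 1 there without replicate 6 of LD0/24, LD8/16, LD12/12 or LD24/0, or replicate 4 or 5 of LD12/12. It was 4 to 6 in the colon with antibiotics and 3 in the cecum with antibiotics. Depth limits the colon chow libraries most, where a count of 0 allows a share of up to 0.00766%, against 0.00562% in the antibiotics libraries.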
